A study of Mus musculus with 12 samples.

Results

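The histone cluster genes are the mouse genes whose symbols begin with Hist1h, Hist2h, Hist3h or Hist4h, the numbered clusters from which most nucleosome proteins are encoded. All such symbols in the authors' deposited table of comparisons were taken, which gave 50 genes of the 20347 genes in that table. By protein they fall into 17 H2A, 8 H2B, 11 H3, 9 H4 and 5 linker H1 genes. By cluster, 41 are Hist1 genes on chromosome 13, 7 are Hist2 genes on chromosome 3, and Hist3h2a on chromosome 11 and Hist4h4 on chromosome 6 stand alone. GENCODE annotates 48 of them as protein-coding and Hist1h2aj and Hist1h2al as pseudogenes. All 50 passed the low-count filter of every main fit.

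The cells were CGR8, an embryonic stem cell line of the mouse, kept in medium with serum and LIF, the cytokine that maintains their pluripotency. Each of 4 groups had 3 libraries, with total RNA as the extracted material. Whether selection by poly(A) tail or depletion of rRNA followed is not given here. In the netrin-1 WT group the cells stably carried the ppy-cagg-ires-puro vector with a transgene for wild-type netrin-1, a secreted guidance protein. The unc5B MUT and neo1 MUT groups carried the same vector with netrin-1 that has a point mutation affecting its interaction with a receptor, Unc5b or neogenin (Neo1). The control group carried the vector without an insert, so all groups share the transfection, the vector backbone and the culture medium. The labels do not say whether a group is 1 clone or a pool, nor whether its libraries came from separate cultures, so the p-values below are relative to the scatter among these libraries, which could be only technical. The groups share the replicate numbers 1, 2 and 3, and each number holds 1 library of every group.

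Replication-dependent histone genes are transcribed mainly in S phase, when new DNA must be packed into nucleosomes. Their mRNAs are unusual among animal mRNAs because they end in a conserved stem-loop and not in a poly(A) tail. The stem-loop is bound by Slbp, the U7 snRNP directs the cleavage just after it, and Npat at histone locus bodies drives transcription of the clusters. Variants encoded outside the clusters, such as H2afz and H3f3a, are mostly replication-independent and polyadenylated.

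The histone stem-loop, searched on the sense strand of the annotated exons as a pattern of 16 bases with free positions in the stem and the loop, was present in 30 of the 50 genes (60%), against 48 of 21903 other protein-coding genes (0.219%). It was found in 9 of 17 H2A, 4 of 8 H2B, 7 of 11 H3, 7 of 9 H4 and 3 of 5 H1 genes. A match is a description of the letters, and a gene model without one may end before it. Some annotated models run on past the match, by 1643 bases in Hist3h2a. The stem-loops of some of the genes named below are shown as examples of the match. They are given 5′ to 3′ on the strand of the gene, from GENCODE M21 transcripts on GRCm38, and the 16 bases of the stem-loop are in capitals.
Hist1h2ap, chr13:21833026-21833049, minus strand: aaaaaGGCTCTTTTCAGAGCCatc
Hist1h2ad, chr13:23574890-23574915, plus strand: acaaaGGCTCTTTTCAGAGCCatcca
Hist1h2ae, chr13:23570663-23570688, minus strand: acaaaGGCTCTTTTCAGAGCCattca
Hist3h2a, chr11:58955167-58955192, plus strand: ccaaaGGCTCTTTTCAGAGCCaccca
Hist1h2bk, chr13:22036295-22036320, plus strand: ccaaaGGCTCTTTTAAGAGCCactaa
Hist1h3e, chr13:23561898-23561923, minus strand: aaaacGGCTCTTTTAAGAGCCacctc
Hist1h4n, chr13:21831793-21831818, minus strand: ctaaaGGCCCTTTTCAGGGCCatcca
Hist1h4i, chr13:22040961-22040986, minus strand: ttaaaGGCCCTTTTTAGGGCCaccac

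The 30 matches had 4 core sequences. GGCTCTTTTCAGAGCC was found in 19 genes and included the match of every H1 and H2A gene that had one. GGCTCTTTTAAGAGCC was found in 4 genes, 3 of them H3 genes and the other Hist1h2bk. The 7 H4 genes with a match had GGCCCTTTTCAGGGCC in 5 cases and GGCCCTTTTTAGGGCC in 2 cases.

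Upstream stretches are shown for the genes at both ends of the result described next, Hist1h2ah and Hist1h2ap, which were nearly missing from the libraries numbered 3, and Hist1h2aa, which was found mostly there. They come from the RefSeq promoter table on GRCm38.p6, are read on the strand of the gene and end before its start. Capitals mark the CCAAT box, TATAAA and the octamer ATTTGCAT on either strand.
Hist1h2ah, chr13:22035644-22035893, minus strand: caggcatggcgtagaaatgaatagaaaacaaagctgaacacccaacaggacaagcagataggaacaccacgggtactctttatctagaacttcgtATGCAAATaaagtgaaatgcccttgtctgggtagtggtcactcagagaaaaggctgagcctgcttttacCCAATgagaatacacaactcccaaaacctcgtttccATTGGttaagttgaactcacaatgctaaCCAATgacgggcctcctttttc
Hist1h2ap, chr13:21833508-21833725, minus strand: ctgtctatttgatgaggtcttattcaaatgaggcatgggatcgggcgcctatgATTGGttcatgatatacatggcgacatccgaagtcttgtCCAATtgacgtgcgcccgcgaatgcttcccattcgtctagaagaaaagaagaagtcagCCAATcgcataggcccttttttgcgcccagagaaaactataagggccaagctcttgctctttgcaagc
Hist1h2aa, chr13:23934187-23934436, plus strand: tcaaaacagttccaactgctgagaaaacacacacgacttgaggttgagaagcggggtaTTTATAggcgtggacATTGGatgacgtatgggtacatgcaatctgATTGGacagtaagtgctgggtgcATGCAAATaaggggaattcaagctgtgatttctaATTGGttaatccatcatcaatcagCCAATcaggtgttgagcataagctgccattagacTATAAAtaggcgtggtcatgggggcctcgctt

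Of the 50 genes, 43 had an entry in the RefSeq table, which covers 250 bases before and 50 bases after the start. CCAAT (or ATTGG) was in 37 of the 43 (86.0%), against 37.4% of all 32851 promoters. TATAAA (or TTTATA) was in 23 of the 43 (53.5%), against 13.6% of all promoters, and ATTTGCAT (or ATGCAAAT) in 7 of the 43 (16.3%), against 1.74% of all promoters. The stretches of Hist1h2ah and Hist1h2ap hold 3 CCAAT boxes each, and that of Hist1h2aa holds 4 with 2 TATAAA motifs. The full RefSeq entry of Hist1h2ah also holds 1 TATAAA motif, just past the end of the stretch shown, and that of Hist1h2ap holds 0.

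Most histone cluster genes were close to the lower limit of detection. Over all 12 libraries, 37 of the 50 had a mean under 1 CPM (counts scaled to library size, with TMM factors), and the median of the 50 means was 0.586 CPM. A library with a count of 0 was found for 19 of them. Library totals were 22256195 to 24736421 counts in the 4 libraries numbered 3 and 32370919 to 59735737 counts in the 8 numbered 1 and 2. Per kb of exon, Hist1h2ap (298 CPM per kb) and Hist1h2ah (249 CPM per kb) stood far above Hist1h2af (14.6), Hist1h2ad (9.33) and Hist1h2bc (5.38), all as means over the 12 libraries. Of these 5, Hist1h2bc is the H2B gene and the others are H2A genes. That order is set by the libraries numbered 1 and 2. In the libraries numbered 3, Hist1h2ap had 0.550 CPM per kb and Hist1h2ah 0.159, below Hist1h2aj (6.49), Hist1h2aa (5.75) and Hist1h2bc (3.58).

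Reads of near-identical copies could not always be assigned. Of all stretches of 31 bases in a member's exons, the median share also present in another gene was 85.9% for H2A, 64.2% for H3, 47.9% for H4, 44.5% for H2B and 3.93% for H1. Hist1h2ap shared 93.4% of its stretches, its closest partner being Hist1h2ao, and Hist1h2ah shared 91.2%, most with Hist1h2ad. The sources used here do not say how such reads were divided or whether strand was used, so single genes are uncertain and sums per family stand beside them.

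The libraries numbered 3 stood apart from the rest over the whole transcriptome, with 63.4% of 20290 genes called by edgeR at an adjusted p below 0.05. The first principal component of all 12 libraries held 70.2% of the variance. Its scores by library are not given here. Summed CPM of 7 embryonic stem cell markers was 3455 to 3927 in the libraries numbered 3 and 3199 to 4021 in those numbered 1 and 2, so the markers of the labelled cell type were present in both sets. Ntn1, which checks the transgene, had 34.9 to 76.8 CPM in the 3 netrin-1 libraries numbered 3, against 0.781 CPM in control 3. In the libraries numbered 1 and 2 it had 201 to 321 CPM with netrin-1, against 9.08 and 15.4 CPM in the controls. In bulk RNA, fewer cells of a type and less RNA per cell cannot be told apart.

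Histone cluster transcripts were low in all 4 libraries numbered 3, and most of that difference was in H2A. The 50 genes together had 26.1 ± 3.12 CPM in the libraries numbered 3 (SD, n = 4) and 422 ± 56.5 CPM in those numbered 1 and 2 (SD, n = 8), a 16.2-fold difference. Of the deposited counts they were 0.00184% to 0.00235% in the libraries numbered 3 and 0.0387% to 0.0595% in the others. The labels do not say what a replicate number stands for, so this is a difference between sets of libraries and not between treatments. Each set holds the 4 groups equally.

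**Figure D1:**
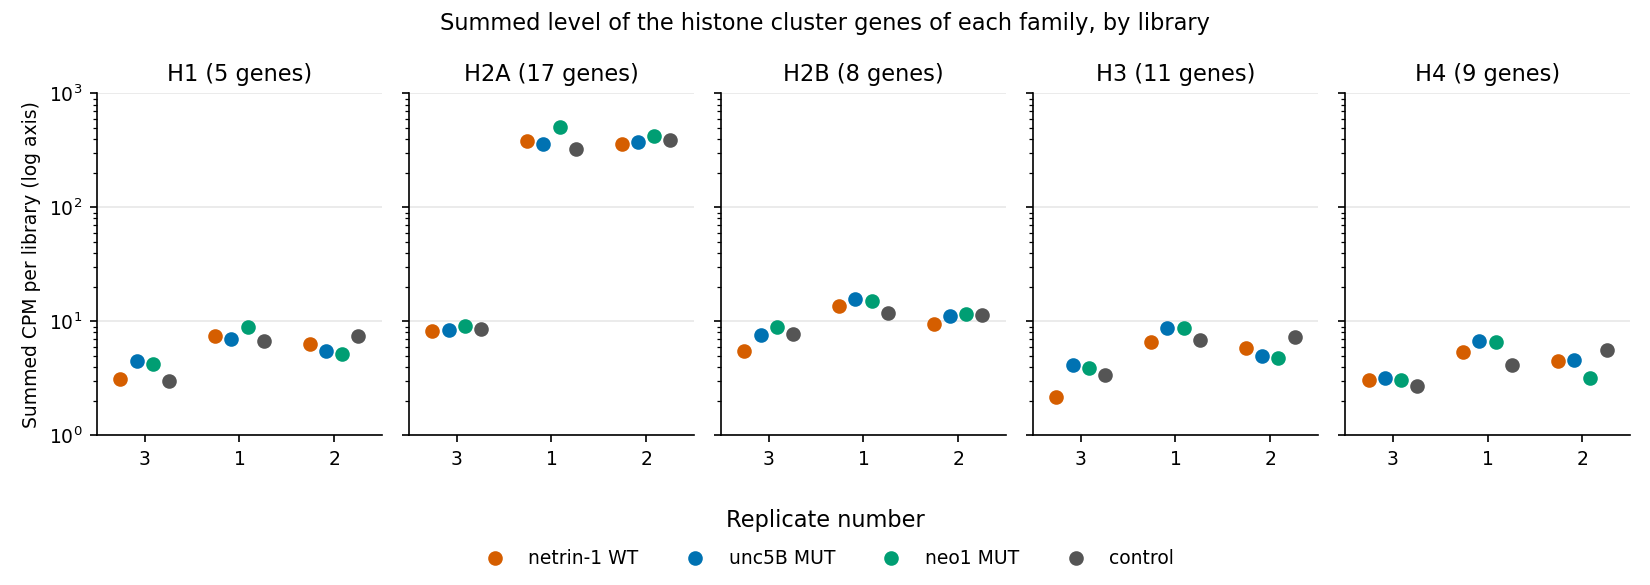
Summed CPM of the genes of each histone family (log axis) in each of the 12 libraries, by replicate number and coloured by group. H2A lies between 8.18 and 9.12 CPM in the 4 libraries numbered 3 and between 326 and 505 CPM in the other 8, while the other families differ by 1.69-fold to 1.98-fold between the means.

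With edgeR's quasi-likelihood test, number 3 against the mean of numbers 1 and 2 with the group as a term, 30 genes were lower and 7 higher at an adjusted p below 0.05, and 13 were not called. This must be read against the background, since 63.4% of all 20290 genes tested were called, 31.9% higher and 31.5% lower. The median log2 fold change was -1.31 over the 50 genes and -0.04 over all genes. In 19 of the 50, all 4 libraries numbered 3 lay below the other 8, a pattern held by 18% of all genes, and in 5 all 4 lay above, against 21% of all genes. With library totals in place of TMM sizes the median of all genes moved to -0.51 and that of the 50 to -1.78. Then 36 of the 37 calls held in the same direction, and the split was 6 higher and 36 lower, against 3994 higher and 10218 lower over all genes.

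**Figure D2:**
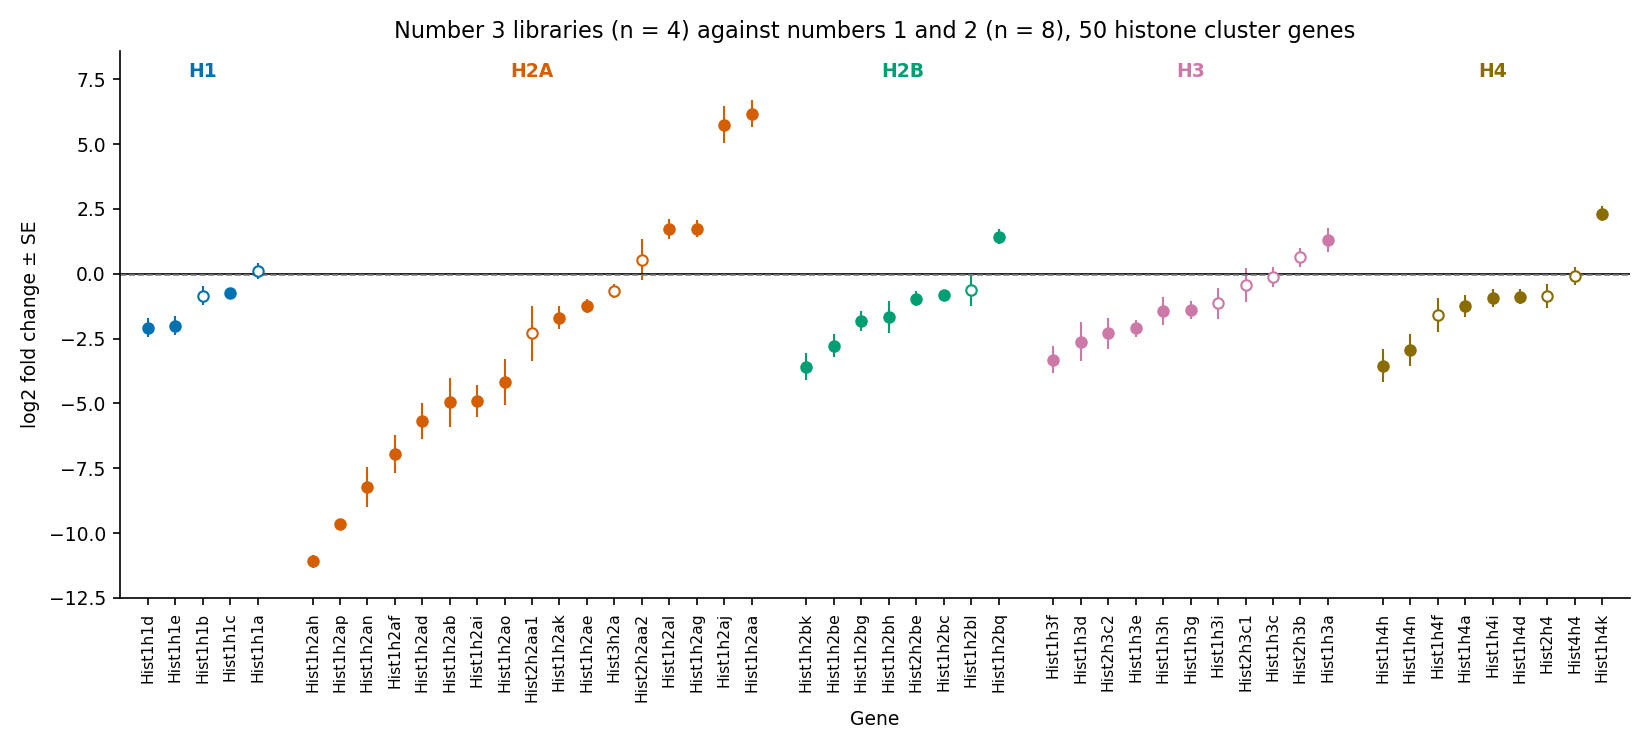
Log2 fold change of each of the 50 genes, number 3 over the mean of numbers 1 and 2, with its SE, by family (filled points, edgeR adjusted p below 0.05; open points, not called; dashed line, median of all genes). Most points lie below the line, and the lowest and the highest values are both H2A genes.

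H2A, which pairs with H2B at the faces of the nucleosome, held the largest part of the difference. Summed H2A was 8.58 ± 0.395 CPM in the libraries numbered 3 (SD, n = 4) and 391 ± 54.2 CPM in those numbered 1 and 2 (SD, n = 8), a 45.6-fold difference. H2A made up 32.9% of the sum of all 50 genes in the libraries numbered 3 and 92.6% in the others. Of the 17 H2A genes, 10 were lower, 4 higher and 3 not called, with a median log2 fold change of -2.30.

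Hist1h2ap (chr13:21833026-21833507, minus strand), a canonical H2A gene of the large chromosome 13 cluster, had 0.145, 0.326, 0.367 and 0.223 CPM in the libraries numbered 3 of netrin-1 WT, unc5B MUT, neo1 MUT and control. In the 8 libraries numbered 1 and 2 its lowest, median and highest values were 186, 205 and 277 CPM. The sets did not overlap, and the log2 fold change was -9.66 (SE 0.169, edgeR adjusted p = 1.44e-11), from 20 counts in all libraries numbered 3 and 76952 in the others.

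Hist1h2ah (chr13:22035164-22035568, minus strand), another canonical H2A gene of that cluster, had 0.0968, 0, 0.105 and 0.0558 CPM in the same libraries numbered 3. Its lowest, median and highest values in the other 8 were 116, 151 and 199 CPM. The log2 fold change was -11.1 (SE 0.268, edgeR adjusted p = 1.5e-10), from 5 counts against 54072. Among the 4469 genes with a mean of at least 50 CPM, Hist1h2ah and Hist1h2ap ranked 2 and 3 from the lowest log2 fold change. Together they were 1.26% of the summed CPM of the 50 genes in the libraries numbered 3 and 86.6% in the others. Without both, H2A was 8.25 ± 0.299 CPM in the libraries numbered 3 and 25.3 ± 3.01 CPM in the others, and all members were 25.8 ± 3.04 CPM and 56.4 ± 7.04 CPM in the same order, a 2.19-fold difference.

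Hist1h2af and Hist1h2ad, canonical H2A genes that share most of their letters, behaved alike. Hist1h2af had 0, 0.109, 0 and 0.167 CPM in the libraries numbered 3, against a lowest, median and highest value of 2.90, 8.59 and 16.1 CPM in the others (log2 fold change -6.96, SE 0.744, edgeR adjusted p = 1.26e-05). Hist1h2ad had 0.145, 0, 0.472 and 0 CPM in the libraries numbered 3, against 3.36, 6.76 and 17.8 CPM in the others (log2 fold change -5.68, SE 0.705, edgeR adjusted p = 3.99e-05). Neither overlapped between the sets. Hist1h2an, named after its values were seen, had 0 counts in every library numbered 3 and 364 counts in the others, at least 25.7-fold lower when 3 counts are taken as the limit over the 4 libraries.

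A smaller part of H2A was higher in the libraries numbered 3. Hist1h2aa (chr13:23934462-23934851, plus strand), which encodes TH2A, an H2A form known from testis and oocytes, had 2.66, 2.17, 1.57 and 2.57 CPM in the libraries numbered 3. In the other 8 its lowest, median and highest values were 0, 0.0241 and 0.0956 CPM. The sets did not overlap (log2 fold change 6.17, SE 0.521, edgeR adjusted p = 2.03e-06), and the sums were 171 and 11 counts. The testis genes Hist1h1t and Hist1h2ba are outside the authors' table, and neither passed 0.393 CPM in a library. Among genes named after their values were seen, the pseudogene Hist1h2aj had 2.37, 2.23, 3.15 and 1.39 CPM in the libraries numbered 3 and 0 to 0.27 CPM in the others (log2 fold change 5.75, SE 0.712, edgeR adjusted p = 3.94e-05). Hist1h2ag and the pseudogene Hist1h2al were the other H2A genes called higher, by 1.74 and 1.71 on the log2 scale.

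**Figure D3:**
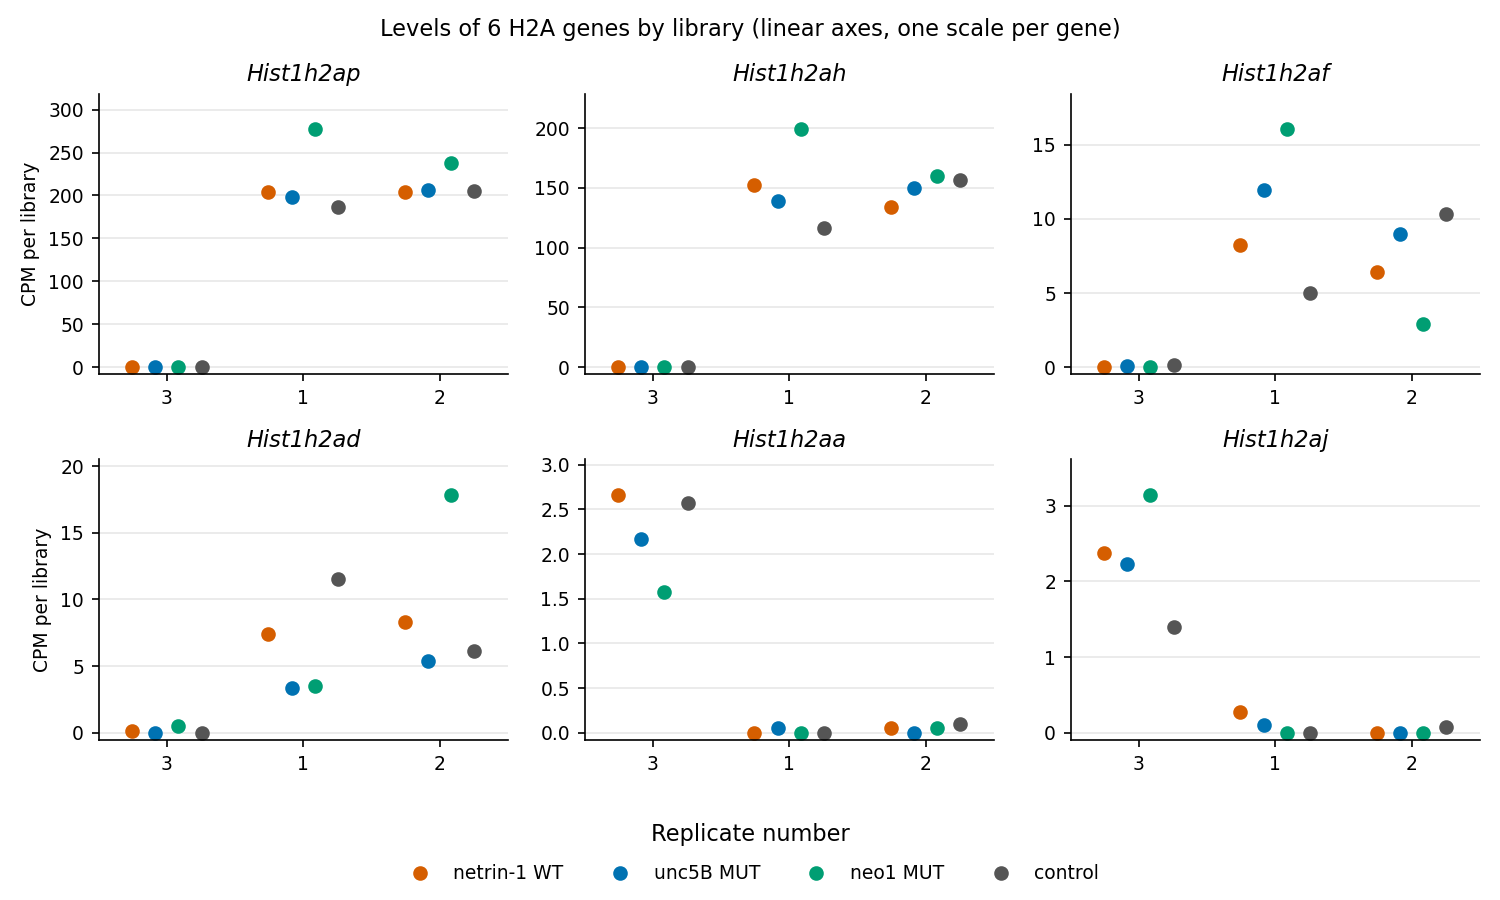
CPM in each of the 12 libraries (linear axes, 1 scale per gene) of Hist1h2ap, Hist1h2ah, Hist1h2af, Hist1h2ad, Hist1h2aa and Hist1h2aj, by replicate number and coloured by group. Hist1h2ap, Hist1h2ah, Hist1h2af and Hist1h2ad are under 0.5 CPM in all libraries numbered 3, and Hist1h2aa and Hist1h2aj lie above 1 CPM there and below it in the others.

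Genes on the opposite strand of the H2A genes were also counted, and are given without a test. Of the annotated miRNA genes that lie opposite an H2A member, 9 are in the count table, and their sum was 2.32 to 5.08 CPM in the libraries numbered 3 and 0 to 0.131 CPM in the others. Gm44390, opposite Hist1h2ah, had 0.558 to 2.23 CPM in the libraries numbered 3 and 0 in all of the other 8, while Gm44344 and Gm44346 had 0 in all 12. All genes annotated as miRNA together took 0.0525% to 0.123% of the counts in the libraries numbered 3 and 0.0523% to 0.172% in the others. The antisense gene Gm20633 had 0.0558 to 0.242 CPM in the libraries numbered 3 and 0.0784 to 0.434 CPM in the others, and Gm20632 had 0.163 to 0.367 CPM and 0.185 to 0.752 CPM in the same order, both with overlap. H2afx, an H2A-like gene outside the clusters, had 111 to 152 CPM in the libraries numbered 3 and 134 to 231 CPM in the others. The part of these neighbours in the H2A result was not tested.

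H2B genes, whose protein forms the dimer with H2A, differed less. Summed H2B was 7.41 ± 1.39 CPM in the libraries numbered 3 (SD, n = 4) and 12.5 ± 2.09 CPM in those numbered 1 and 2 (SD, n = 8), with 6 of 8 genes lower, 1 higher and 1 not called. Hist1h2bc, the highest of them per kb, had 2.90 to 5.14 CPM in the libraries numbered 3 and 4.45 to 9.55 CPM in the others. These sets overlapped in range, and the gene fell by 0.81 on the log2 scale (SE 0.159, edgeR adjusted p = 0.00104). Hist1h2bk, the neighbour of Hist1h2ah on the other strand, had 0.0558 to 0.217 CPM in the libraries numbered 3 and 0.444 to 1.99 CPM in the others, without overlap (log2 fold change -3.58, SE 0.516, edgeR adjusted p = 0.000121). Hist1h2bg was lower too (log2 fold change -1.81, SE 0.385, edgeR adjusted p = 0.00175). Hist1h2bq was higher in the libraries numbered 3, with 1.62 to 2.61 CPM against 0.265 to 1.46 CPM (log2 fold change 1.42, SE 0.286, edgeR adjusted p = 0.00126). Hist1h2bq shares 98.3% of its 31-base stretches with Hist1h2br, so the value may belong to either.

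H3 genes encode a core histone whose tail carries many regulatory marks. Summed H3 was 3.40 ± 0.877 CPM in the libraries numbered 3 (SD, n = 4) and 6.73 ± 1.53 CPM in the others (SD, n = 8). Of 11 genes, 6 were lower, 1 was higher and 4 were not called. Hist1h3e had 0.194 to 0.367 CPM in the libraries numbered 3 and 0.601 to 1.94 CPM in the others, without overlap (log2 fold change -2.11, SE 0.314, edgeR adjusted p = 0.000153). Hist1h3h overlapped between the sets and was lower by a smaller margin (log2 fold change -1.43, SE 0.547, edgeR adjusted p = 0.0397). That call was lost without neo1 MUT 2 or 3, netrin-1 WT 1, 2 or 3, unc5B MUT 1 or 3, or control 2, at edgeR adjusted p-values of 0.0504 to 0.086. Hist1h3i, next to it in level, was not called (log2 fold change -1.13, SE 0.600, edgeR adjusted p = 0.121), but it was with library totals (log2 fold change -1.60, edgeR adjusted p = 0.0305). The H3 gene called higher was Hist1h3a, and it was not called with library totals.

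H4 genes encode the partner of H3 in the tetramer at the nucleosome's centre. Summed H4 was 3.01 ± 0.197 CPM in the libraries numbered 3 (SD, n = 4) and 5.10 ± 1.21 CPM in the others (SD, n = 8), with 5 of 9 genes lower, 1 higher and 3 not called. Hist1h4n had 0 to 0.210 CPM in the libraries numbered 3 and 0.235 to 1.37 CPM in the others, without overlap (log2 fold change -2.93, SE 0.617, edgeR adjusted p = 0.00169). Hist1h4i overlapped between the sets (log2 fold change -0.93, SE 0.336, edgeR adjusted p = 0.0311). That call was lost without neo1 MUT 1 or 3, unc5B MUT 1, 2 or 3, or control 3, the last of which gave -0.60 (edgeR adjusted p = 0.109). Hist1h4k went the other way, with 0.893 to 1.09 CPM in the libraries numbered 3 and 0.0784 to 0.386 CPM in the others, without overlap (log2 fold change 2.31, SE 0.296, edgeR adjusted p = 5e-05).

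H1 genes encode the linker histone that binds where DNA enters and leaves the nucleosome. Summed H1 was 3.71 ± 0.740 CPM in the libraries numbered 3 (SD, n = 4) and 6.80 ± 1.19 CPM in the others (SD, n = 8), with 3 of 5 genes lower and 2 not called. Hist1h1c had 1.14 to 1.62 CPM in the libraries numbered 3 and 1.30 to 3.56 CPM in the others, with overlap (log2 fold change -0.73, SE 0.203, edgeR adjusted p = 0.00859). Against number 2 alone that call was lost (log2 fold change -0.47, edgeR adjusted p = 0.0993). Hist1h1a, the H1 gene with the highest level per kb, had 0.893 to 1.95 CPM in the libraries numbered 3 and 0.679 to 1.99 CPM in the others and was not called (log2 fold change 0.12, SE 0.311, edgeR adjusted p = 0.759). Hist1h1b was not called either (log2 fold change -0.85, SE 0.369, edgeR adjusted p = 0.0633), but it was with library totals (log2 fold change -1.32, edgeR adjusted p = 0.0073).

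The position of the stem-loop in the annotated gene split the 50 genes unevenly. Of 13 genes whose model ends within 100 bases of the stem-loop, 7 were lower and 2 higher, with a median log2 fold change of -2.93. Of 17 whose model runs on for more than 100 bases, 13 were lower and 0 higher, with a median of -1.67, and Hist1h1c, Hist1h3e and Hist1h4i are among them. Of 20 without the letters, 10 were lower and 5 higher, with a median of -0.91 and the widest range, from Hist1h2ah to Hist1h2aa. These are descriptions of counts that share reads between near-identical genes.

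Between numbers 2 and 1 no histone cluster gene was called, with 0% of all 20290 genes called by edgeR. At an unadjusted p below 0.05 there were 3 of the 50 genes and 2460 of all 20290 genes, and DESeq2 called 0 of the 50 and 291 of all genes. The median log2 fold change of the 50 was -0.26. The difference of number 3 was present in every group, since the 4 libraries numbered 3 each had 22.1 to 29.2 CPM for the 50 genes and the other 8 had 356 to 544 CPM. A test of whether the difference varied between groups, chosen after the data were seen, called 0 of the 50 genes and 0.00493% of all genes with edgeR. The lowest adjusted p among the 50 was 0.398, and 1 of them had an unadjusted p below 0.05, against 2431 of all 20290 genes.

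Other classes of RNA differed between the same libraries. Genes annotated as rRNA took 0.0331% to 0.0437% of the counts in the libraries numbered 3 and 0.304% to 1.23% in the others. Processed pseudogenes took 3.16% to 3.47% in the libraries numbered 3 and 1.48% to 1.81% in the others. Some other classes without a poly(A) tail were higher in the libraries numbered 3, but not every further class was. The share of snoRNA genes was 0.0108% to 0.0134% there and 0.00413% to 0.00557% in the others, and that of snRNA genes was 0.00148% to 0.00189% and 0.000961% to 0.00139% in the same order. The shares of mitochondrial tRNA genes were 0.0192% to 0.0304% in the libraries numbered 3 and 0.00229% to 0.00601% in the others, and those of misc_RNA genes were 0.00899% to 0.0103% and 0.00311% to 0.00683% in the same order. Mitochondrial rRNA genes went the other way, with 0.0236% to 0.0340% in the libraries numbered 3 and 0.0789% to 0.163% in the others. The shares of scaRNA genes overlapped, at 0.000365% to 0.000485% and 0.000236% to 0.000573% in the same order. Of the single RNAs without a poly(A) tail that were listed for comparison, 4 of 5 tested were lower and 0 higher, with a median log2 fold change of -2.60 against -0.04 for all genes. Rn7s1, the RNA of the signal recognition particle, had 2.36 ± 0.292 CPM in the libraries numbered 3 (SD, n = 4) and 27.9 ± 9.28 CPM in the others (SD, n = 8), with a log2 fold change of -3.50 (SE 0.224, edgeR adjusted p = 2.2e-07). The 7SK RNA Rn7sk fell by 1.61 on the log2 scale (SE 0.413, edgeR adjusted p = 0.00565), and the telomerase RNA Terc fell by 2.60 (SE 0.339, edgeR adjusted p = 5.78e-05). Summed fibroblast markers were 7.55 to 17.6 CPM in the libraries numbered 3 and 4.26 to 9.47 CPM in the others, and summed trophectoderm markers were 38.6 to 85.6 CPM and 27.2 to 74.7 CPM in the same order. Among the trophectoderm markers tested, Tfap2c alone was called (log2 fold change 1.98, edgeR adjusted p = 1.13e-06). Elf5 (-0.47), Krt8 (-0.11) and Krt18 (-0.08) were not called. The part of depth, rRNA, pseudogenes, these other RNAs and these markers in the histone result was not tested.

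Histone variants encoded outside the clusters were divided in direction. Of 11 tested, 5 were higher and 3 lower in the libraries numbered 3, with a median log2 fold change of 0.25. H2afz, which encodes the variant H2A.Z, had 2696 ± 740 CPM in the libraries numbered 3 (SD, n = 4) and 751 ± 162 CPM in the others (SD, n = 8), with a log2 fold change of 1.84 (SE 0.093, edgeR adjusted p = 3.35e-08). H2afx, which encodes the H2A form phosphorylated at DNA breaks, was lower (log2 fold change -0.47, SE 0.117, edgeR adjusted p = 0.00475). H3f3a, one of the genes for H3.3, was lower by 0.23 on the log2 scale (SE 0.090, edgeR adjusted p = 0.0418), and H3f3b was not called (log2 fold change 0.25, SE 0.176, edgeR adjusted p = 0.242). With library totals the split was 4 higher and 5 lower and no called gene changed sign. The counts of this list and of those that follow must be read against all 20290 genes, of which 31.9% were higher and 31.5% lower. Library totals moved the median of all genes to -0.51 and made more genes lower than higher, as given above.

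Genes of the 3′ processing machinery were mixed, with 11 of 17 higher and 5 lower in the libraries numbered 3 and a median log2 fold change of 0.31. With library totals the split was 5 higher and 7 lower, and Snrpb, Cstf2, Ncbp1 and Ncbp2 changed sign. Sympk, the scaffold of the cleavage complex, had 401 ± 9.79 CPM in the libraries numbered 3 and 139 ± 14.9 CPM in the others (SD, n = 4 and n = 8), with a log2 fold change of 1.53 (SE 0.075, edgeR adjusted p = 2.67e-08). Srrt, which links the cap to histone processing, was higher by 0.92 on the log2 scale (SE 0.095, edgeR adjusted p = 9.74e-06). Slbp itself, outside the rule for named genes, had 205 ± 24.0 CPM in the libraries numbered 3 and 136 ± 9.83 CPM in the others (SD, n = 4 and n = 8). Its log2 fold change was 0.59 (SE 0.073, edgeR adjusted p = 3.83e-05), but 0.12 and not called with library totals (edgeR adjusted p = 0.186). The median of all genes was -0.51 with that scaling.

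Of 8 genes of histone gene transcription, 1 was higher and 3 lower, with a median of 0.10 on the log2 scale. Trrap, a cofactor of histone acetylation at promoters, was higher by 0.94 (SE 0.115, edgeR adjusted p = 3.79e-05), and Gon4l was lower by 0.53 (SE 0.088, edgeR adjusted p = 0.000338). Npat, outside the rule for named genes, had 37.7 ± 6.86 CPM in the libraries numbered 3 and 66.1 ± 14.1 CPM in the others (SD, n = 4 and n = 8; log2 fold change -0.79, SE 0.126, edgeR adjusted p = 0.000239). Of 8 genes of histone mRNA translation and decay, 4 were higher and 1 lower, the lower one being Upf1, the helicase of RNA decay (log2 fold change -0.70, SE 0.078, edgeR adjusted p = 1.68e-05). With library totals the splits became 1 higher and 5 lower for transcription, and 3 higher and 4 lower for translation and decay, in which Dis3 changed sign.

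Histone chaperones, which carry new histones to DNA, had 10 of 17 higher and 4 lower in the libraries numbered 3, with a median log2 fold change of 0.47. Hat1, which acetylates new H4, was higher by 1.18 on the log2 scale (SE 0.094, edgeR adjusted p = 1.26e-06), and Nasp, which holds free H3 and H4, was lower by 0.46 (SE 0.072, edgeR adjusted p = 0.000216). Genes of S phase and replication had 8 of 21 higher and 6 lower, with a median of 0.09. Mcm2, a subunit of the replicative helicase that also binds H3 and H4, had 2223 ± 301 CPM in the libraries numbered 3 and 425 ± 33.5 CPM in the others (SD, n = 4 and n = 8), with a log2 fold change of 2.39 (SE 0.093, edgeR adjusted p = 4.09e-09). Rpa1, which coats single-stranded DNA, was lower by 0.27 (SE 0.081, edgeR adjusted p = 0.0128). With library totals the splits were 7 higher and 6 lower for chaperones, where Chaf1b and Ubn1 changed sign, and 4 higher and 13 lower for S phase genes, where Mcm6, Mcm7 and Gmnn changed sign. The median log2 fold change was then -0.01 for chaperones and -0.38 for S phase genes, against -0.51 for all genes.

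The design's own comparisons ask whether netrin-1 and its receptor interactions alter the transcriptome. In the fit without pairing, 0 of the 50 histone cluster genes passed edgeR's adjusted p of 0.05 in any of the 6 comparisons of the groups. The background was as low, since 0.0997% of 21053 genes were called for netrin-1 WT against control, 0% for unc5B MUT against control and 0.128% for neo1 MUT against control. It was 0% for unc5B MUT against netrin-1 WT, 0.076% for neo1 MUT against netrin-1 WT and 0.133% for neo1 MUT against unc5B MUT. At an unadjusted p below 0.05 there were 0, 1, 0, 1, 1 and 1 of the 50 genes in the same order, where all genes had 5.79%, 1.13%, 7.26%, 5.03%, 4.82% and 6.85%. DESeq2 called 0 of the 50 in the first 5 comparisons and 1, Hist3h2a, in the last. The shares of all genes that DESeq2 called are not given here, so these counts have no background beside them.

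The libraries numbered 3 deviated together (r 0.81 to 0.88) and apart from the rest. Correlations between numbers 1 and 2 (0.49 to 0.76) were much like those within number 1 (0.58 to 0.75) or number 2 (0.64 to 0.76). They therefore do not set numbers 1 and 2 apart. A fit blocked on the 3 numbers, which the groups share, stands beside these counts. It called 1 histone cluster gene for neo1 MUT against control and 1 for neo1 MUT against unc5B MUT, where 5.26% and 4.87% of all genes were called. It called 0 in the other 4, where 3.5% of all genes were called for netrin-1 WT against control, 0.0285% for unc5B MUT against control, 1.97% for unc5B MUT against netrin-1 WT and 1.99% for neo1 MUT against netrin-1 WT. At an unadjusted p below 0.05, it found 6 of the 50 for netrin-1 WT (18.1% of all genes), 4 for unc5B MUT (4.70% of all genes) and 3 for neo1 MUT (20.2% of all genes) against control. Against netrin-1 WT it found 2 for unc5B MUT (17.6% of all genes) and 7 for neo1 MUT (14.3% of all genes), and for neo1 MUT against unc5B MUT it found 6 (21.1% of all genes). The median log2 fold changes of the 50 genes ran from -0.24 (neo1 MUT against unc5B MUT) to 0.12 (neo1 MUT against netrin-1 WT). The shares of members called, 1 of 50 or 0 of 50, lie near the background. The 3 comparisons with control share the control libraries, and the 2 with netrin-1 WT share those.

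**Figure D4:**
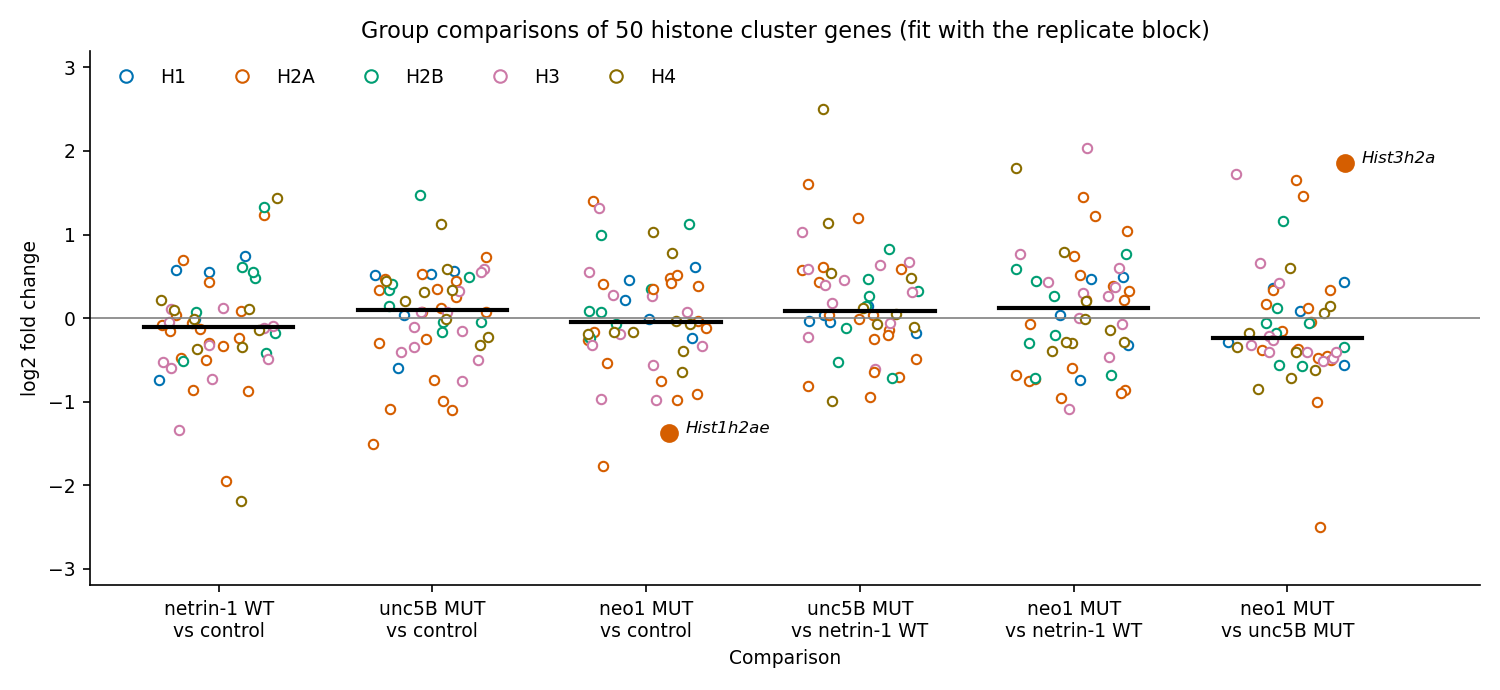
Log2 fold change of each of the 50 genes in the 6 comparisons of groups, from the edgeR fit with the replicate block (filled and named points, adjusted p below 0.05; black bar, median of the 50). The medians lie between -0.24 and 0.12, and Hist1h2ae and Hist3h2a are the only points called.

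Hist1h2ae (chr13:23570517-23571220, minus strand), a canonical H2A gene, was called lower in neo1 MUT than in control by the edgeR fit with the replicate block. Its group means were 0.686 CPM in neo1 MUT, 0.843 CPM in unc5B MUT, 1.22 CPM in netrin-1 WT and 1.71 CPM in control. It had 0.262, 0.619 and 1.18 CPM in neo1 MUT libraries 3, 1 and 2, and 0.949, 1.90 and 2.29 CPM in the control libraries of the same numbers. The neo1 MUT value was lower within each number, while the ranges of the groups overlapped. The log2 fold change was -1.37 (SE 0.332, edgeR adjusted p = 0.0399) with the replicate block and -1.31 (SE 0.604, edgeR adjusted p = 0.715) without it. It had 0.597, 0.932 and 1.0 CPM in unc5B MUT libraries 3, 1 and 2, and 0.532, 1.65 and 1.48 CPM in those of netrin-1 WT. The call with the block was lost with library totals (edgeR adjusted p = 0.0513) and without the libraries numbered 3 (log2 fold change -1.23, edgeR adjusted p = 0.124). Leaving out 1 library at a time gave edgeR adjusted p-values of 0.049 to 0.16 with the block. The value stayed below 0.05 only without neo1 MUT replicate 2, and leaving out any other library of these groups lost the call. In the authors' deposited table the log2 fold change is -1.38 with an adjusted p of 0.0198, where 5.52% of its genes pass.

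Hist3h2a (chr11:58954685-58956830, plus strand), the H2A gene of the third cluster, differed between the mutants. It had 1.42, 2.07 and 2.59 CPM in neo1 MUT libraries 3, 1 and 2, and 0.489, 0.402 and 0.827 CPM in those of unc5B MUT. These groups did not overlap. In the same order of numbers it had 0.387, 1.11 and 1.11 CPM in netrin-1 WT and 1.34, 1.28 and 2.15 CPM in control. For neo1 MUT against unc5B MUT the log2 fold change was 1.86 (SE 0.348, edgeR adjusted p = 0.0165) with the block and 1.82 (SE 0.494, edgeR adjusted p = 0.325) without it. Against control, unc5B MUT fell by 1.51 on the log2 scale with the block (SE 0.35, edgeR adjusted p = 0.402), which did not pass. Leaving out 1 library at a time gave edgeR adjusted p-values of 0.0391 to 0.134 for the mutants with the block. The value stayed below 0.05 only without neo1 MUT replicate 3 or unc5B MUT replicate 3. Leaving out any other library of the mutants lost the call. Without the libraries numbered 3 the log2 fold change was 1.94 (edgeR adjusted p = 0.059). In the authors' deposited table it is 1.94 with an adjusted p of 0.0117, where 6.36% of its genes pass. Trim17 overlaps Hist3h2a on the same strand, with 0.0524 to 0.436 CPM in the libraries numbered 3 and 0.376 to 0.737 CPM in the others.

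**Figure D5:**
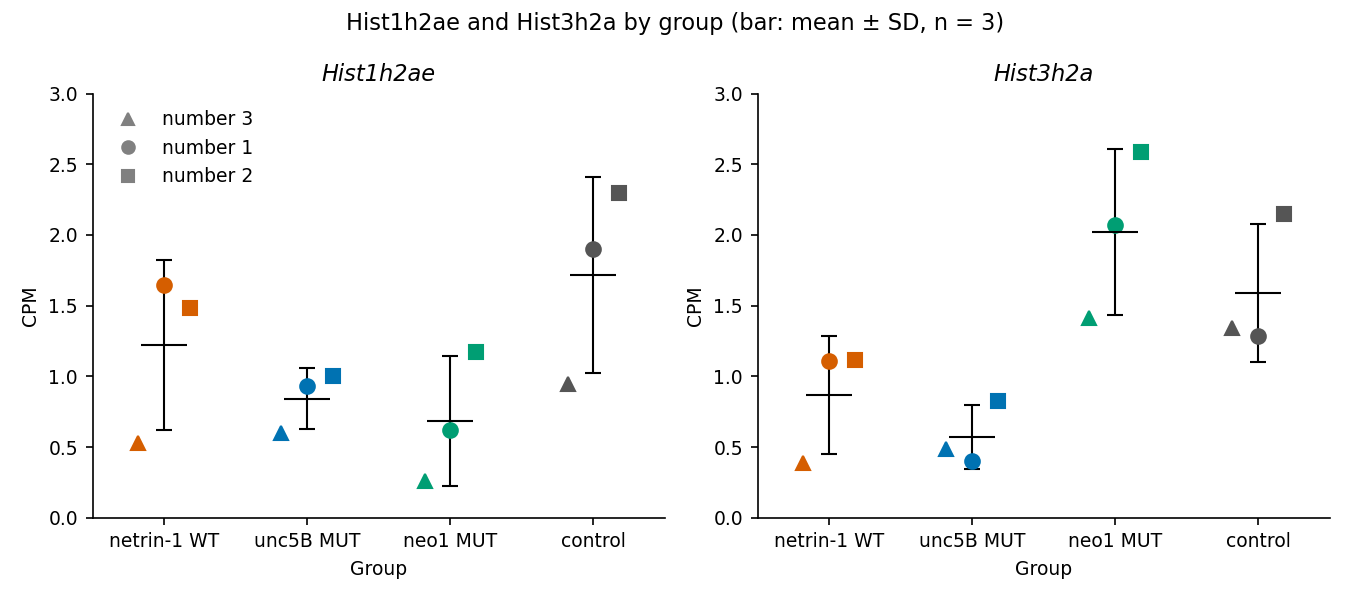
CPM of Hist1h2ae and Hist3h2a by group, with markers by replicate number and bars for the mean ± SD (n = 3 libraries). Hist1h2ae is lower in neo1 MUT than in control within each number, and Hist3h2a is 1.42 to 2.59 CPM in neo1 MUT and 0.402 to 0.827 CPM in unc5B MUT.

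Summed H2A, given without a test, was 505 and 426 CPM in neo1 MUT libraries 1 and 2, 361 and 378 CPM in those of unc5B MUT, 383 and 360 CPM in those of netrin-1 WT, and 326 and 391 CPM in the controls. The neo1 MUT sums were thus the highest in both numbers. Without the libraries numbered 3, Hist1h2ap differed between neo1 MUT and control by 0.39 on the log2 scale (SE 0.12, edgeR adjusted p = 0.123), and 0 of 47 members tested were called in any of the 6 comparisons. The shares of all genes called in that fit are not given here, so the 0 is not a result about the members. Summed primitive endoderm markers moved with the groups, at 29.9 to 46.7 CPM in netrin-1 WT, 133 to 189 CPM in unc5B MUT, 23.6 to 57.4 CPM in neo1 MUT and 232 to 298 CPM in control. Their part in the group values of Hist1h2ae and Hist3h2a was not tested.

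In the histone variant, processing, transcription, decay, chaperone and S phase lists, few genes were called between groups, each in the fit with the replicate block alone. H2afz was lower in neo1 MUT than in unc5B MUT (log2 fold change -0.55, SE 0.129, edgeR adjusted p = 0.0387) and higher in unc5B MUT than in netrin-1 WT (0.60, SE 0.129, edgeR adjusted p = 0.0439). Ccna2, the cyclin of S and G2 phase, was higher in netrin-1 WT than in control (1.01, SE 0.105, edgeR adjusted p = 0.00085). It was lower than in netrin-1 WT in both neo1 MUT (-0.91, SE 0.105, edgeR adjusted p = 0.0019) and unc5B MUT (-0.79, SE 0.105, edgeR adjusted p = 0.00682). Ccne1, whose kinase partner activates Npat, was lower in netrin-1 WT than in control (-0.56, SE 0.137, edgeR adjusted p = 0.0498). Gmnn, which blocks relicensing of replication origins, was lower than in control in neo1 MUT (-0.57, SE 0.088, edgeR adjusted p = 0.00623) and in netrin-1 WT (-0.46, SE 0.088, edgeR adjusted p = 0.0186). Rpa1 was lower in netrin-1 WT than in control (-0.52, SE 0.107, edgeR adjusted p = 0.0267). Between neo1 MUT and unc5B MUT, E2f1, a transcription factor of S phase entry, was higher (0.68, SE 0.159, edgeR adjusted p = 0.0368) and Tyms, which makes thymidylate, was lower (-0.50, SE 0.127, edgeR adjusted p = 0.0478). No gene of the 3′ processing, decay or chaperone lists was called in a group comparison.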

How the data were processed

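Estimated counts per Ensembl gene in 12 libraries were deposited by the authors, so the values need not be whole; the design had assumed whole-number counts, and they were rounded. The authors' deposited table of comparisons gives log2 fold changes, a signed fold score, p-values and adjusted p-values per the file headers; the deposited log2 normalized table was not used. The submitters' processing notes name STAR 2.5.2b, Bowtie2, Bowtie, DESeq2, FastQC 0.11.5 and R 3.3.2, and among genome builds GRCh38, mm10 and GRCm38.p5; the counting program and its strand setting are not given in the sources used here. Names, coordinates and exons are from GENCODE M21 (GRCm38).

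Fits used edgeR 4.0.16 (R 4.3.3, limma 3.58.1) with TMM, filterByExpr, the quasi-likelihood F-test and Benjamini-Hochberg adjustment over all genes tested. Each fit held all 12 libraries. The 6 group comparisons had the group alone as a term, and number 3 against 1 and 2 had the replicate number plus the group. The SE is the log2 fold change divided by the square root of F. Scripts were tested on simulated data. Alternatives were the replicate block, RLE sizes, library totals, 2 other filters, DESeq2 1.42.0, subsets of libraries and each library left out. The block with other scalings and the test of number 3 by group were added after the data were seen. Same-number libraries deviated together (r 0.58 to 0.88), as did numbers 1 and 2 (0.49 to 0.76), while number 3 ran against both (-0.83 to -0.60), a sign that centring on the mean of 3 libraries partly fixes. The pairing comes from the titles, and these correlations set apart number 3 but not number 1 from number 2.

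The members, gene lists and tests were chosen with earlier results of these data known. Named genes were the 3 highest per kb in each family, members called between groups, the 4 highest and 4 lowest number 3 fold changes with a mean of at least 1 CPM, testis forms, and in each companion list those called between groups and up to 4 of the highest level.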

Additional observations from a re-analysis of the deposited data

How the results depend on the processing

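The 37 histone cluster genes called for number 3 became 22 with a filter of at least 1 CPM in 3 libraries, which tested 24 of the 50. RLE sizes gave 37, library totals 42, no filter 38, no group term 36, DESeq2 36, number 1 alone 36 and number 2 alone 33, and leaving out each library gave 31 to 38. The share of all genes called was 63.4% in the main fit and is not given here for most of these settings. The counts therefore do not set the members apart from all genes. Of 397 recomputed values for 20 named genes, 372 kept their direction and side of the threshold, 18 lost the call, all in Hist1h3h, Hist1h4i or Hist1h1c, 7 gained one and 0 reversed.

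For the groups, the count of 0 without pairing became 1 for neo1 MUT against control with the replicate block, with and without RLE sizes. For neo1 MUT against unc5B MUT it became 1 with the replicate block, with the block and RLE sizes or library totals, and with DESeq2. Leaving out each library gave 0 to 1 in these comparisons and 0 to 0 in the other 4. The block changed no other count of members called. Most members have under 1 CPM, which limits what these libraries can show.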

Other observations

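In the 8 libraries numbered 1 and 2, Hist1h2ad ranged from 3.36 to 17.8 CPM and Hist1h2af from 2.90 to 16.1 CPM, with coefficients of variation of 60.8% and 47.5%. Their sum ranged from 14.3 to 20.7 CPM, with a coefficient of variation of 13.9%. Hist1h2af shares 85.9% of its 31-base stretches with Hist1h2ad. The ratio of Hist1h2ap to Hist1h2ah in the same libraries was 1.31 to 1.60, with a coefficient of variation of 6.81%.

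A further 20 histone cluster symbols are in GENCODE M21 but outside the authors' table. Together they had 1.12 to 1.65 CPM in the libraries numbered 3 and 1.49 to 2.80 CPM in those numbered 1 and 2, and the highest single value was 0.502 CPM.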
